A study of Mus musculus with 10 samples.

Results

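Desmin was the only cytoplasmic intermediate filament protein removed in these mice, and the question asked here was whether the transcript of any other filament gene of muscle was higher in its absence. The genes described are a listed set of 7, namely Vim (vimentin), Nes (nestin), Synm (synemin), Sync (syncoilin), Krt8, Krt18 and Krt19 (keratins), out of 54232 genes in the expression table. RNA of calf muscle had been sequenced from 5 desmin knock-out mice (genotype Des -/-) and 5 wild-type mice (Des wt/wt). The muscle was the gastrocnemius by the labels and the methods of the study. The study's figure legend and discussion name the neighbouring plantaris as well. All mice had the same strain label, in which B6J and 129Sv-Destm1Cba/Cscl are joined by a point. No treatment is given, and the mice were littermates of 3 months of age by the methods. The knock-out is a germline loss of Des in every cell. Sex is not given in the labels, but Y-linked transcripts were expressed in every mouse, so each sample held male RNA. The methods speak of pooled RNA, whereas the table has a column per mouse, so the p-values measure the spread between these columns.

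Intermediate filaments are rope-like polymers that carry mechanical load. Desmin rings the Z-discs of striated muscle and ties them to each other, to nuclei and to the cell membrane. Vimentin can polymerise alone or with desmin, and is typical of fibroblasts, endothelium, leukocytes and immature muscle cells. Nestin and synemin are large filament proteins that need desmin or vimentin as partners, and syncoilin binds desmin and the dystrophin-associated protein α-dystrobrevin. Keratins assemble only as pairs of an acidic and a basic chain, here keratin 18 or 19 with keratin 8, and are best known from simple epithelia, although low amounts occur at the costameres of muscle fibers.

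Of the 7 genes, Krt18 and Nes were higher in desmin knock-out muscle, none was lower, and Vim, Synm, Sync, Krt8 and Krt19 did not pass the test. Krt18 was 3.28-fold higher on the scale of the deposited values (95% confidence interval 2.12 to 5.07) and Nes 1.33-fold (1.12 to 1.58). The values are regularized log (rlog) values, log2 expression values that are scaled for library size and pulled towards the mean of each gene, so that differences are smaller than those of read counts, most of all for weakly expressed genes such as the keratins. Testing across the table (limma, Benjamini-Hochberg adjustment) covered the 14289 genes whose average rlog value reached log2(10). That limit was passed by 6 of the 7, and Krt19 lay under it. Calls rest on an adjusted p under 0.05, by which 7.7% of all tested genes were higher and 5.99% were lower, the background for the 2 of 6 genes called higher. At an unadjusted p under 0.05 (limma), 3 of the 6 were higher and 0 lower. The median log2 difference was 0.34 over the 6 genes and -0.0029 over all tested genes.

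**Figure D1:**
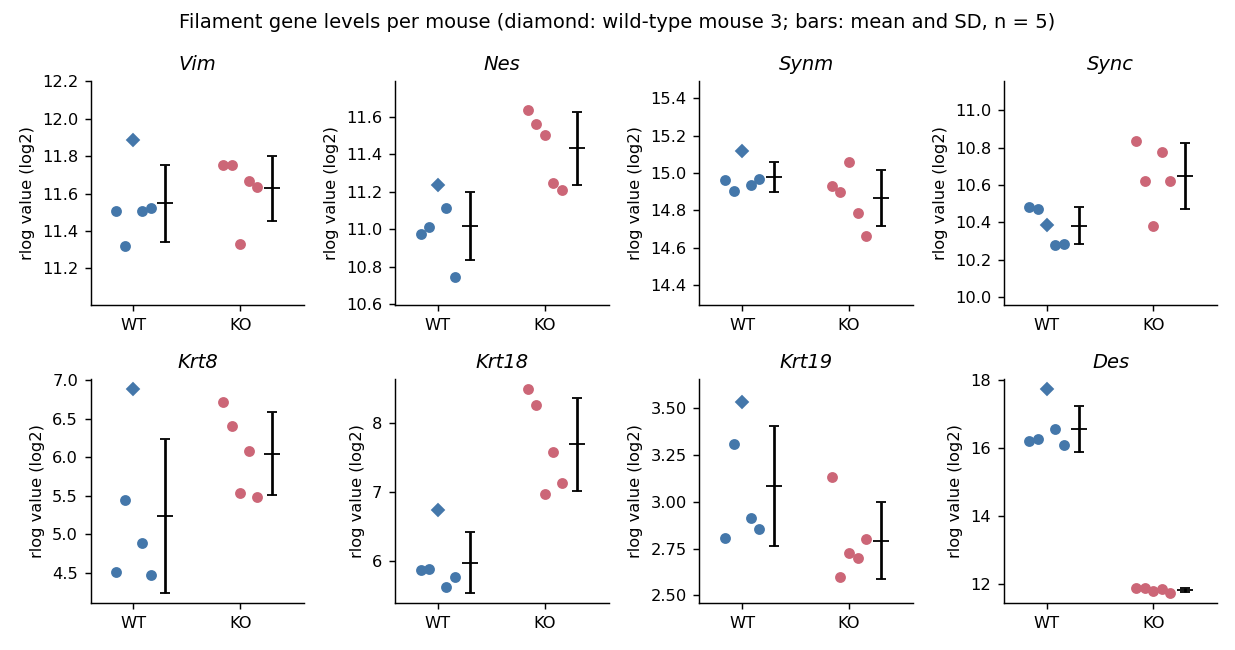
The plots give the rlog value (log2 scale) of the 7 filament genes and Des in every mouse, with wild-type (WT) mice in blue, desmin knock-out (KO) mice in red, wild-type mouse 3 as a diamond, and the mean and SD of 5 mice as bars; axes do not start at 0. Des and Krt18 separate the genotypes completely, and wild-type mouse 3 is the highest wild-type mouse in each panel except that of Sync.

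Des (ENSMUSG00000026208, chromosome 1 of GRCm38), the targeted gene, followed the labels in every mouse, with rlog values of 11.76 to 11.89 in desmin knock-out and 16.10 to 17.74 in wild-type muscle. None of the 7 genes lies on its chromosome. Wild-type mouse 3 stood apart from the others. The sum of its values after reversal of the logarithm was 1.48 times the median of all mice, and it correlated less with its group (mean r 0.982, against 0.989 to 0.991 for the rest). Results that rest on this mouse are given with and without it.

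To place the genes by abundance, the rlog value was taken as a power of 2 and divided by the kilobases of exon, here called the length-scaled level. In wild-type muscle Des came first with 28810 ± 16779 (SD, n = 5), and its mean without wild-type mouse 3 was 21395. Synm followed with 4078 ± 240, then Vim with 637 ± 95.7, Sync with 467 ± 32.0, Nes with 325 ± 40.3, Krt18 with 45.6 ± 16.2, Krt8 with 24.2 ± 20.8 and Krt19 with 4.66 ± 1.08 (all SD, n = 5). Of the neighbours in this order, only Krt18 (34.3 to 74.2) and Krt8 (11.4 to 60.6) had ranges that overlapped over the wild-type mice, although Krt18 was above Krt8 in each of the 5. Without wild-type mouse 3 the mean of Krt8 was 15.1 ± 5.06 (SD, n = 4). Synm thus made up 73.1% of the summed length-scaled level of the 7 genes in wild-type muscle, and the 3 keratins together only a small part of it.

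The same sum was 5651 ± 450 in desmin knock-out and 5582 ± 394 in wild-type muscle (SD, n = 5). With all mice included, their difference of 69.6 was smaller than either SD and equal to 0.241% of the wild-type level of Des. Both values rest in part on wild-type mouse 3. Its sum was 6274, against 5299 to 5511 in the other wild-type mice. Its Des level was 58473, against 18697 to 25603. The shares of the Des level given here include that mouse. The knock-out mean of the 7-gene sum lay above every wild-type sum except that of wild-type mouse 3. Leaving this mouse out therefore widens the difference, and the comparison with the wild-type SD holds only with it included. The knock-out sums, at 4991 to 6116, still spanned the remaining wild-type sums. Taken singly, the change in length-scaled level ran from -1.01% of the wild-type level of Des for Synm to 0.386% for Krt18, with 0.377% for Nes, 0.336% for Sync and 0.119% for Vim. Krt18 rose from 0.816% to 2.77% of the 7-gene sum and Nes was at 5.83% and 7.68%. The 7-gene sum mostly reflects Synm. Summed without Synm, a choice made after seeing the data, the length-scaled level was 1865 ± 236 in desmin knock-out and 1503 ± 161 in wild-type muscle (SD, n = 5). The genotypes overlapped, at 1578 to 2175 and 1378 to 1783, through wild-type mouse 3 alone. Each other wild-type mouse was below all desmin knock-out mice. Without wild-type mouse 3 the wild-type level was 1433 ± 43.8 (SD). The Des value left in desmin knock-out muscle, 980 ± 37.8 (SD, n = 5) per kilobase, is not read here as an amount of transcript. Values by rlog are pulled towards the mean of all 10 mice. The part of this pull in the Des value was not tested, as counts were not used.

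**Figure D2:**
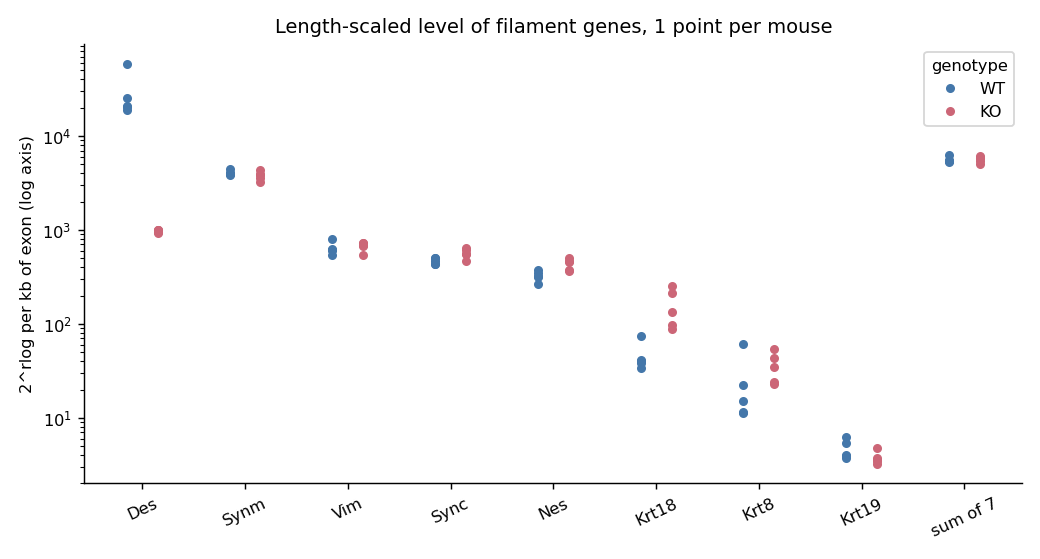
The length-scaled level (2 to the power of the rlog value per kilobase of exon, log axis) is plotted for Des, the 7 filament genes and their sum, with 1 point per mouse in blue (WT) and red (KO). Des drops below Synm in desmin knock-out muscle, the sum of the 7 genes overlaps between the genotypes, and only Krt18 separates them upwards.

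Krt18 (ENSMUSG00000023043), the acidic keratin that pairs with keratin 8, lies on the forward strand of chromosome 15 from 102028180 to 102032027. Its rlog values in desmin knock-out mice 1 to 5 were 8.49, 8.27, 6.97, 7.58 and 7.13. In wild-type mice 1 to 5 they were 5.86, 5.88, 6.74, 5.62 and 5.77. Each desmin knock-out mouse was above all wild-type mice, and the closest values were those of knock-out mouse 3 and wild-type mouse 3. Such a complete separation, in either direction, was found for 14.4% of all tested genes. The genotypes differed by 1.71 on the log2 scale (limma, SE 0.29, adjusted p = 0.00138), and 99.6% of tested genes had a smaller one. An exact permutation test of the 10 values, two-sided, gave p = 0.00794, the smallest that 5 against 5 mice allow. The level within the knock-out group was uneven, with mice 1 and 2 more than 1 log2 unit above mice 3 and 5. Leaving out wild-type mouse 3 gave 1.91 (limma, adjusted p = 3.1e-04).

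Krt8 (ENSMUSG00000049382), the basic partner, is read from the opposite strand, from 101996698 to 102004482, and its start lies 23.7 kb from that of Krt18. Its rlog values in desmin knock-out mice 1 to 5 were 6.72, 6.41, 5.54, 6.08 and 5.49, and in wild-type mice 4.51, 5.44, 6.89, 4.88 and 4.47. Wild-type mouse 3 had the highest value of all 10 mice, while each desmin knock-out mouse was above the other 4 wild-type mice. Over all mice the log2 difference was 0.81 (95% confidence interval -0.06 to 1.68, adjusted p = 0.216 from limma). Without wild-type mouse 3 it was 1.22 and passed (adjusted p = 0.00637 from limma). A call for Krt8 therefore hung on a single wild-type mouse. The pseudogene Krt8-ps was close to the floor, with rlog values of -2.07 to -2.04, and how reads shared with it were counted is not given in the sources used here.

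Because both chains are needed for a filament, Krt8 and Krt18 were also compared within each mouse, where library scaling cancels. The rlog value of Krt8 minus that of Krt18 was -1.64 ± 0.18 in desmin knock-out and -0.73 ± 0.63 in wild-type muscle (SD, n = 5 each). All 5 knock-out values lay under all wild-type values, and the means differed by -0.91 (exact permutation test, two-sided, p = 0.00794, adjusted p = 0.0317 over 4 such ratios). On the rlog scale Krt18 thus differed more than Krt8. Without wild-type mouse 3 the shift was -0.68 (exact permutation test, adjusted p = 0.0159). The adjusted p was 0.111 without knock-out mouse 1 or 2, 0.0741 without knock-out mouse 4 and 0.0529 without knock-out mouse 5 (exact permutation tests). Krt8 had the lower rlog value in 9 of the 10 mice, and the part of rlog shrinkage in this shift was not tested.

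**Figure D3:**
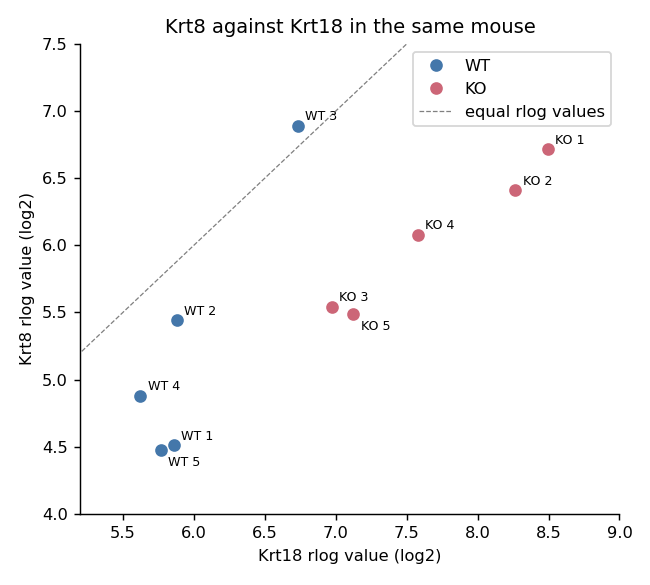
Each point is a mouse, with the rlog value (log2) of Krt18 on the horizontal and of Krt8 on the vertical axis, WT in blue and KO in red, and a dashed line at equal values. The KO mice lie further right for a given height, WT mouse 3 has the highest Krt8 value at 6.89, and KO mice 1 and 2 are the highest of their genotype for both genes.

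The upstream sequences of this keratin pair are shown because the genes lie near each other and their products form a pair. Motifs were sought in the 250 bases before the RefSeq start on GRCm38.p6. The part of that window outside the gene as annotated by GENCODE is printed 5′ to 3′ on the strand of the gene, chr15:102004483-102004592 on the reverse strand for Krt8 and chr15:102027966-102028179 on the forward strand for Krt18. Capitals mark the E-box, CANNTG on either strand, the letters bound by myogenic and other helix-loop-helix factors.
Krt8: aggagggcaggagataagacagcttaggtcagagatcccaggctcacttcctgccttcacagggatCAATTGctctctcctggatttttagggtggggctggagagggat
Krt18: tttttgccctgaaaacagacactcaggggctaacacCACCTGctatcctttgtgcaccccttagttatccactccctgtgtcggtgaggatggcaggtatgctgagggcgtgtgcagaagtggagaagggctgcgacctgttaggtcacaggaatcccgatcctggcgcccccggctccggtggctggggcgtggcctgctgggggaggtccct
The printed E-box of Krt8 starts at position -184 and that of Krt18 at -214, counted from the RefSeq start. The form CACCTG was found in both windows, in Krt8 from position -111, beyond the printed stretch, and in Krt18 at -214. It is present in 17.1% of the 27025 upstream sequences of this length, and any E-box in 66.0%. Neither the AP-1 motif TGANTCA (6.87% of sequences) nor a CArG box (1.40%) matched in either window. These matches describe letters and not bound sites.

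Krt19 (ENSMUSG00000020911, chromosome 11, 100140810 to 100148665), the other acidic partner of keratin 8, was the weakest of the 7. Its rlog values ran from 2.60 to 3.14 in desmin knock-out and from 2.81 to 3.53 in wild-type muscle. The groups overlapped, and 4 of the 5 desmin knock-out mice were below all wild-type mice. Taken from the fit without an expression limit, the log2 difference was -0.29 (95% confidence interval -0.65 to 0.07, adjusted p = 0.355 from limma). The rlog value of Krt8 minus that of Krt19 was 3.26 ± 0.49 in desmin knock-out and 2.16 ± 0.70 in wild-type muscle (SD, n = 5 each), a difference of 1.10 (exact permutation test, two-sided, p = 0.0238, adjusted p = 0.0476 over 4 ratios). That adjusted p rose to between 0.0529 and 0.111 in the exact permutation tests that left out any single mouse except knock-out mouse 3 and wild-type mouse 3. Leaving out wild-type mouse 3 gave 1.40 (exact permutation test, adjusted p = 0.0159).

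Nes (ENSMUSG00000004891, chromosome 3, 87971078 to 87980451, forward strand) encodes nestin, which in adult muscle is known from satellite cells, regenerating fibers and the neuromuscular and myotendinous junctions, and also from vessels. Its rlog values in desmin knock-out mice 1 to 5 were 11.64, 11.56, 11.51, 11.24 and 11.21, and in wild-type mice 10.98, 11.01, 11.24, 11.11 and 10.75. All knock-out mice except mouse 5 were above all wild-type mice, and wild-type mouse 3 reached the level of knock-out mice 4 and 5. The genotypes differed by 0.42 on the log2 scale (limma, SE 0.12, adjusted p = 0.0291), and the exact permutation test gave p = 0.0159. This call was close to the threshold. The adjusted p (limma) was 0.0809, 0.0821 and 0.0713 without knock-out mouse 1, 2 or 3, and 0.0537, 0.0553 and 0.0650 without wild-type mouse 1, 2 or 5. It was 0.00718 without wild-type mouse 3 and 0.0675 after median centring of the samples. The log2 difference stayed positive in each of these fits, between 0.35 and 0.47.

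The upstream sequence of Nes (chr3:87970843-87971077, GRCm38.p6, forward strand, chosen in the same way) is shown as that of the other gene called higher. Capitals mark the GC box, GGGCGG on either strand.
Nes: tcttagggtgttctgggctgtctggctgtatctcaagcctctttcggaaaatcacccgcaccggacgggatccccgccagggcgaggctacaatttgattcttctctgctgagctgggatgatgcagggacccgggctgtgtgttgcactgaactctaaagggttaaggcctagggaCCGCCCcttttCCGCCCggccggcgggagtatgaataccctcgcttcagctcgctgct
It held 2 GC boxes, from positions -73 and -62, where 32.9% of all upstream sequences held at least 1. No E-box, AP-1 motif or CArG box matched in this window.

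Vim (ENSMUSG00000026728, chromosome 2, 13573927 to 13582826), the filament gene most like Des in its protein, was flat between the genotypes. Its rlog values were 11.75, 11.75, 11.33, 11.67 and 11.64 in desmin knock-out mice 1 to 5, and 11.50, 11.32, 11.88, 11.51 and 11.52 in wild-type mice. Wild-type mouse 3 was the highest of all mice and the 2 lowest values belonged to wild-type mouse 2 and knock-out mouse 3. The log2 difference was 0.080 (95% confidence interval -0.17 to 0.33, adjusted p = 0.693 from limma), so that a rise beyond 1.26-fold on the rlog scale lay outside the interval. Leaving out wild-type mouse 3 gave 0.16 (limma, adjusted p = 0.254). It passed only when limma weighted the samples (log2 difference 0.21, adjusted p = 0.047). Against Nes in the same mouse, Vim differed by -0.34 between the genotypes (exact permutation test, p = 0.0556, adjusted p = 0.0741 over 4 ratios), so a difference in response between Vim and Nes was not established.

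Synm (ENSMUSG00000030554, chromosome 7, 67730160 to 67759742, reverse strand), the most abundant of the 7, did not pass either. The rlog values of desmin knock-out mice 1 to 5 were 14.93, 14.90, 15.06, 14.79 and 14.67. Those of wild-type mice 1 to 5 were 14.96, 14.91, 15.12, 14.94 and 14.97. Desmin knock-out mice 2, 4 and 5 lay below all wild-type mice and the other two within their range. The log2 difference was -0.11 (95% confidence interval -0.33 to 0.11, adjusted p = 0.518 from limma), which puts any rise above 1.08-fold outside the interval on the rlog scale. The rlog value of Vim minus that of Synm moved by 0.19 (exact permutation test, p = 0.198, adjusted p = 0.198 over 4 ratios). Without knock-out mouse 3 this shift was 0.31 and passed (exact permutation test, adjusted p = 0.0423). Synm lies within the span of Ttc23 on the other strand (log2 difference -0.17, adjusted p = 0.36 from limma). The library kit kept strand information, but the strand setting of the counting is not given in the sources used here.

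Sync (ENSMUSG00000001333, chromosome 4, 129287617 to 129308559, forward strand) had rlog values of 10.84, 10.62, 10.38, 10.77 and 10.62 in desmin knock-out mice 1 to 5. In wild-type mice they were 10.48, 10.47, 10.39, 10.28 and 10.28. All knock-out mice except mouse 3 were above all wild-type mice. The log2 difference of 0.27 (standard error 0.099, 95% confidence interval 0.05 to 0.48) did not pass after adjustment (adjusted p = 0.0948 from limma), while the exact permutation test of this gene alone gave p = 0.0317. Without knock-out mouse 3 it was 0.33 and passed (adjusted p = 0.0416 from limma). The last 1460 bases of Sync overlap Rbbp4 on the other strand, itself at 0.21 on the log2 scale (adjusted p = 0.101 from limma).

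**Figure D4:**
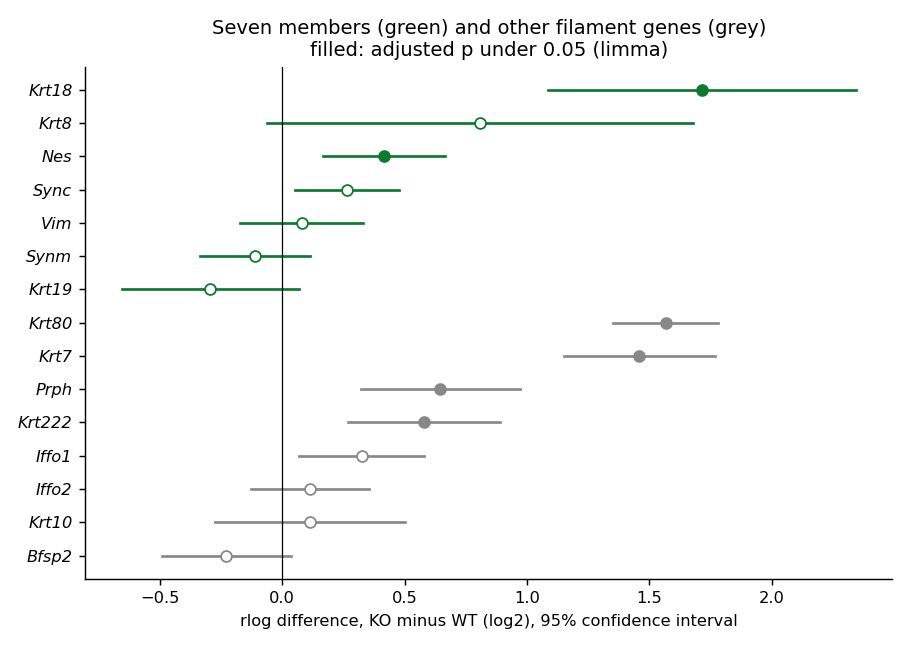
Points give the rlog difference (log2, KO minus WT) with its 95% confidence interval from limma, filled where the adjusted p was under 0.05. The 7 genes are in green and the 8 tested genes of the list of other filament genes in grey. Krt18, Krt80 and Krt7 stand furthest to the right, with differences of 1.71, 1.57 and 1.46.

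Further intermediate filament genes were taken as a list of 61. It was made of all other keratins, the neuronal, glial and lens filament genes and both Iffo genes. Of these, 24 were listed at 0 in every mouse, 29 lay under the expression limit and 8 were tested. Of the 8, 4 were higher in desmin knock-out muscle, all 4 without overlap between the genotypes, and 0 were lower (limma; 0 also at an unadjusted p under 0.05), with a median log2 difference of 0.45. Of all tested genes, 7.7% were higher and 14.4% were without overlap in either direction. The summed level of the list, as 2 to the power of the rlog value, was 1015 to 1101 in desmin knock-out and 674 to 920 in wild-type muscle. The strongest was Krt80, a keratin of differentiating epithelia, at 7.58 ± 0.11 in desmin knock-out and 6.01 ± 0.087 in wild-type muscle (rlog values, SD, n = 5; log2 difference 1.57, adjusted p = 3.6e-07 from limma). Krt7, another keratin of simple epithelia, was at 5.37 ± 0.31 and 3.91 ± 0.079 (log2 difference 1.46, adjusted p = 1.6e-05 from limma). Prph, the peripherin gene of peripheral neurons, and Krt222 made up the 4 (log2 differences 0.65 and 0.58, adjusted p = 0.0112 and 0.0165 from limma). Both were named after their values were seen. Their separation was narrow, with lowest knock-out and highest wild-type rlog values of 3.95 and 3.86 for Prph and 6.57 and 6.55 for Krt222. Prph lay close to the expression limit. Wild-type mouse 3 had the highest wild-type value of Krt80 (6.13) and the lowest of Krt7 (3.79), both below all desmin knock-out mice. A large part of the summed level was Iffo1, at mean rlog values of 8.89 in desmin knock-out and 8.57 in wild-type muscle. Iffo1 was not called (log2 difference 0.32, adjusted p = 0.0901 from limma).

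Keratins in a muscle sample could come with epithelial tissue, so defining epithelial markers were read in the same mice. Of 12, 10 lay under the expression limit. Epcam, Cldn4, Cldn7, Esrp1, Grhl2, Krt5, Krt14 and Dsg3 were below 0 in every mouse, with rlog values of -2.08 to -0.34. Cdh1 and Ovol1 ran from 1.79 to 2.64. The tested 2 were Krt10 (log2 difference 0.11, adjusted p = 0.721) and Trp63 (log2 difference 0.77, adjusted p = 0.00122; both limma), the latter known to be active in muscle fibers as well. The summed level of these 12 genes, as 2 to the power of the rlog value, was 834 to 1267 in desmin knock-out and 585 to 757 in wild-type muscle, and nearly all of it was Trp63. Without Trp63, left out after seeing the data, it was 75.2 to 93.7 and 57.6 to 114, so that the genotypes overlapped. The part of epithelial cells in the keratin values was not tested.

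Genes of proteins that anchor these filaments formed a list of 11. With 10 tested, 1 was higher and 1 was lower, beside 7.7% and 5.99% of all tested genes, and the median log2 difference was 0.15. Their summed level, as 2 to the power of the rlog value, was 148093 to 178373 in desmin knock-out and 98665 to 170349 in wild-type muscle. The highest wild-type sum was that of wild-type mouse 3. Without that mouse the wild-type range was 98665 to 138028, below all desmin knock-out mice. Actn2, the α-actinin of the Z-disc, was higher (log2 difference 0.83, adjusted p = 0.00638 from limma). Dtnb, which encodes β-dystrobrevin, was lower (log2 difference -0.55, adjusted p = 0.0436 from limma). The summed level mostly reflects Actn2 and Cryab, with mean rlog values of 16.04 and 15.75 in desmin knock-out and 15.21 and 15.53 in wild-type muscle. Cryab was not called (log2 difference 0.22, adjusted p = 0.445 from limma). Dtna, the gene of the syncoilin partner α-dystrobrevin, was at -0.038 (adjusted p = 0.833) and Plec, which encodes the filament linker plectin, at -0.025 (adjusted p = 0.915; both limma).

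Nes, Vim and the keratins are not expressed by mature fibers alone, and in bulk muscle a change in the number of cells of a type cannot be told apart from a change in RNA per cell. The counts of called markers in the lists that follow stand against 7.7% of all tested genes higher and 5.99% lower. Beside the filament genes, 12 markers of regenerating fibers had a median log2 difference of 0.63, with 5 higher and 2 lower. Myh3 (2.25, adjusted p = 5.9e-06) and Mymk (1.93, adjusted p = 2.1e-05, both limma) led the higher ones. Mcam (-0.46, adjusted p = 0.00518) and Myod1 (-0.47, adjusted p = 0.0219, both limma) were the lower ones. The summed level of all 12 was taken as 2 to the power of the rlog value. It ran from 5044 to 8353 in desmin knock-out and from 3974 to 5727 in wild-type muscle. The 12 fibroblast markers had 5 genes higher and 1 lower with a median of 0.27. Their sums were 32573 to 45270 in desmin knock-out and 22563 to 44750 in wild-type muscle. Col1a2 (0.64, adjusted p = 0.00795) and Lum (0.99, adjusted p = 0.0091, both limma) led, and Thy1 was lower (-0.62, adjusted p = 0.0212, limma). The 12 endothelial markers had 0 higher (limma; 0 also at an unadjusted p under 0.05) and 6 lower with a median of -0.42, led by Eng (-0.80, adjusted p = 0.0011) and Flt1 (-0.59, adjusted p = 0.00133; both limma), and their sums did not overlap (6124 to 7876 against 8153 to 10054). Endothelium is among the cells that hold vimentin and nestin.

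Of 12 macrophage markers 0 passed in the limma test and 1 was higher at an unadjusted p under 0.05 (median log2 difference -0.071, adjusted p = 0.121 for Ctss and 0.352 for Csf1r), with sums of 2941 to 4233 in desmin knock-out and 3159 to 3827 in wild-type muscle. Of 12 Schwann cell markers 11 were tested and 1 was higher, Egr2 (log2 difference 1.02, adjusted p = 4.5e-04 from limma), followed by Ncmap (0.25, adjusted p = 0.169 from limma), with a median of 0.15 and sums of 2186 to 2928 and 1763 to 3031. Smooth muscle and pericyte markers (12 tested) had a median of -0.28, with Cspg4 higher (1.02, adjusted p = 9.7e-05) and Kcnj8 lower (-0.53, adjusted p = 0.0144; both limma) together with Higd1b, at sums of 19729 to 22820 and 21139 to 30214. The part of these cells in the levels of Nes, Vim and the keratins was not tested.

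For a view of genes with a like pattern, the rlog values of each of the 6 tested genes were correlated with those of all tested genes over the 10 mice, in which the genotypes form 2 groups and share wild-type mouse 3. The 3 genes closest to Krt18 were Gm32023, Esyt1 and Myl12a (Pearson r 0.966, 0.965 and 0.965), and each of them separated the genotypes as Krt18 did. Closest to Nes were Mvp, Hes6 and Lrrfip2 (r 0.947, 0.943 and 0.939). Krt8 was followed by Pld3, Tln1 and Myh1 (r 0.961, 0.953 and 0.950), none of which passed the test between genotypes. Vim was followed by H2-Aa, Mmp14 and Ptges (r 0.963, 0.962 and 0.944), and Synm by Suv39h1, Calcoco1 and Tbc1d5 (r 0.893, 0.890 and 0.880). The best matches of Sync had r of 0.895 to 0.945, with Spon2 at 0.926 between 2 genes without a common name. Among the 7 themselves Krt18 tracked Nes most closely (r 0.866), followed by Sync (r 0.822) and Krt8 (r 0.790), and Synm showed r of -0.240 with Krt18.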

How the data were processed

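Libraries had been made from total RNA with a stranded mRNA kit. Per the labels, reads were handled with cutadapt 2.5, STAR 2.5.4a, featureCounts of Subread 1.6.1 and DESeq2 on GRCm38, named there without order or settings. The authors deposited regularized log values of DESeq2, on a log2 scale, for 10 mice. Counts were not used here, so depth and counting error are unknown.

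Symbols, positions and exonic lengths came from GENCODE M21 (GRCm38), which matched 54165 of 54232 genes. The test between genotypes was that of limma 3.58.1 (R 4.3.3, eBayes with trend, two-sided, Benjamini-Hochberg) over the 14289 genes whose average reached log2(10); Krt19 was taken from the same fit without a limit, genes at 0 in all mice left out. Ratios of genes within a mouse were tested by exact permutation, with adjustment over 4 ratios. The limma step was tested on simulated data.

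Upstream sequences are those of RefSeq on GRCm38.p6, 250 bases before the start, the first entry per symbol; 6 of the 7 genes matched.

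The genes and lists were chosen with earlier results of these data known. Named are the 7 genes, Des, up to 2 genes per list with the smallest adjusted p and the 3 closest by correlation. Prph, Krt222, Iffo1, Higd1b, Mcam, Myod1, Thy1, Dtna, Plec, Cryab, 8 epithelial markers and genes overlapping the 7 were named after their values were seen. The 4 Y-linked transcripts used as a covariate had no call in either direction (limma).

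Alternatives were the expression limit (none, or log2(50)), centring by the median, quantile normalization, eBayes without trend, weights per sample, the replicate number as a block, the Y-linked covariate, each mouse left out and an adjusted p under 0.01.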

Additional observations from a re-analysis of the deposited data

Results flagged for a closer look

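In each genotype, the most extreme of 5 mice was set against the gap to its neighbour (Dixon's test) for the named genes and the 4 ratios. This picked out a mouse in 9 of 64 groups of 5 (about 3.2 would be picked by chance). Wild-type mouse 3 stood apart upwards for Krt18 (rlog value 6.74), Synm (15.12) and Des (17.74). Its Krt8 value of 6.89 was the highest of all mice without reaching the critical gap. Desmin knock-out mouse 3 stood apart downwards for Vim (11.33), the fibroblast gene Col1a2 (11.33), the pericyte gene Kcnj8 (7.62) and the log2 ratio of Vim to Synm (-3.73), and upwards for Egr2 (6.06). Desmin knock-out mouse 1 was high for Krt80 (7.76). No explanation was tested for these mice.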

How the results depend on the processing

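No difference of the 7 genes or Des changed sign in any alternative. Krt18 kept its call in 19 of 19 alternatives (log2 difference 1.51 to 1.95, adjusted p from 2.9e-05 to 0.00962, limma), and so did Des, whereas Synm and Krt19 passed in none. Nes lost its call in 9 of 19: without an expression limit (log2 difference 0.42, adjusted p = 0.0644), after median centring (0.37), under an adjusted p of 0.01 (0.42), and in 6 of the fits without 1 mouse, which ranged from 0.35 to 0.47; the cause was not tested. Sample weights brought Vim (0.21), Sync (0.25) and Krt8 (0.97) past the threshold, and the Y-linked covariate Krt8 (1.28). Without 1 mouse at a time, Sync ranged from 0.22 to 0.33 and Krt8 from 0.62 to 1.22, each passing once. The number of genes called, 1956, became 4220 with sample weights and 994 at an adjusted p under 0.01.

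With the replicate number as a block, 1579 genes were called and no call of the 7 genes changed (Nes adjusted p = 0.0346, limma). Same-numbered mice did not deviate together over all tested genes (correlations of -0.22 to 0.067). Such correlations cannot show whether mice of the same number were paired by litter or handling. In a paired exact permutation test, where 5 pairs cannot give p under 0.0625, the shift of Krt8 against Krt18 (-0.91) and against Krt19 (1.10) had an adjusted p of 0.167. Without 1 mouse at a time these shifts ranged from -1.06 to -0.68 and from 0.96 to 1.40, and that of Vim against Synm from 0.14 to 0.31. Depth is unknown, and rlog values do not show how far the differences of weakly expressed genes such as Krt8 and Krt19 were shrunken.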
